A study of Mus musculus with 8 samples.

Results

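Histone lysine methyltransferases and demethylases are the enzymes that write and erase methyl marks on histone tails, and their own mRNAs were examined here for N6-methyladenosine (m6A). The genes were chosen by name from the protein-coding genes of GENCODE vM21, taking the Kmt, Nsd, Setd and Kdm genes with a number in their symbol together with Ash1l, Dot1l and the Suv39h genes. Kdm1a, Kdm2b and genes of chromosome Y were left out. This gave 38 of 21951 protein-coding genes, called the KMT/KDM genes below. A peak was counted for a gene when the exons of that gene, read on the same strand, shared at least 1 base with the peak, which gave 235 of 18895 DMSO peaks and 162 of 13001 Dox peaks. No peak was shared by 2 of the 38 genes.

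The peaks came from methylated RNA immunoprecipitation sequencing (MeRIP-seq) of E14 mouse embryonic stem cells (ESCs), in which poly(A) RNA fragments pulled down with an anti-m6A antibody (IP) are compared with unselected fragments (input). Every library was from cells that carried a Dox-inducible transgene for Dux, the factor that switches on genes of the 2-cell embryo and gives 2C-like cells, and a tdTomato reporter driven by the Mervl promoter. These cells were grown with KnockOut Serum Replacement and leukemia inhibitory factor and were treated for 24 h with doxycycline (Dox) or with DMSO as solvent control. Effects of Dux and effects of the drug itself cannot be told apart in this design.

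The 8 libraries formed 4 groups of 2 replicates (IP and input of each treatment), but the deposited lists gave 1 set of peaks per treatment. No value here has a replicate error and no test between treatments was possible. Intervals are Wilson 95% intervals of counting error only. For peaks they treat those of the same gene as independent, so that they may be too narrow. The 5 fixed ESC markers Pou5f1, Sox2, Nanog, Esrrb and Zfp42 all carried peaks in both lists, and of 5 fixed 2C markers 2 carried a DMSO peak and 5 a Dox peak. Over all protein-coding genes the DMSO list held 1.45 times as many peaks as the Dox list. Read depth and transcript abundance were not analysed here, and their part in that ratio, or in whether any single peak was called, was not tested.

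Most of these methyltransferases carry a catalytic SET domain, Dot1l being an exception, and most of the demethylases use a Jumonji C domain. Their marks differ in place and use: methylation of H3K4 is typical of promoters and enhancers, of H3K36 and H3K79 of transcribed gene bodies, and of H3K9, H3K27 and H4K20 mainly of repressed or compacted chromatin. m6A is laid down on nascent mRNA by the METTL3-METTL14 complex, mostly at adenosines in a GGAC or related context, and is known to gather near stop codons and in long internal exons.

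The following stretches show where on these mRNAs the best-scoring shared peaks lay. Each holds 30 bases, read 5′ to 3′ on the strand of the gene from the RefSeq copy of the mouse genome (GRCm38.p6, the mm10 coordinates), around the GGAC in capitals nearest to the middle of the DMSO peak. They come from the 8 best-scoring DMSO peaks, 1 per gene, that held a GGAC also under a Dox peak, with Kdm3b left out. All 8 lay in coding sequence.
Kmt2a, exon 19 of 36, chr9:44829119-44829148, minus strand: tcccaaacccaaaGGACccggagagccaga
Kmt2b, exon 28 of 37, chr7:30575321-30575350, minus strand: ggaggtggtgtcaGGACtaagtgctgctga
Kdm5b, exon 19 of 27, chr1:134618002-134618031, plus strand: tgtcagaacactgGGACgacaaagccaaga
Setd3, exon 13 of 13, chr12:108107456-108107485, minus strand: agggtggtgtgggGGACtcaaggctccctc
Kdm5a, exon 27 of 28, chr6:120431970-120431999, plus strand: taaaattaaatgtGGACaaatcaaaagagc
Kdm2a, exon 17 of 21, chr19:4324651-4324680, minus strand: aaagagctccacgGGACatccattgtgccc
Kdm6b, exon 11 of 23, chr11:69404981-69405010, minus strand: ctctgttcttgagGGACaaaagtactgtta
Kdm5c, exon 23 of 26, chrX:152271274-152271303, plus strand: cctggtgggaatgGGACaccaaattcttgt

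The Kmt2a stretch belonged to the best-scoring DMSO peak of all 38 genes, 125 nt long in an exon of 194 nt. Its score, taken here to be a −log10 p-value from the authors' peak calling, was 19.2, and a Dox peak with exactly the same ends scored 11. The Kmt2b, Kdm5a, Kdm2a, Kdm6b and Kdm5c stretches lay in internal exons of 1300, 411, 710, 2168 and 582 nt. Only the Setd3 stretch, at -236 nt from the stop codon, came from a last exon, and the Kdm5b stretch came from an internal exon of 356 nt. The Dox peaks at these 8 sites scored between 11 and 14.4, against 15.4 to 19.2 for the DMSO peaks. The DMSO peaks were chosen by their high scores, so that this gap is a description only.

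m6A peaks were found on most of these mRNAs in both conditions. A DMSO peak was carried by 31 of the 38 genes (81.6%, 95% interval 66.6 to 90.8), where 27.6% of all protein-coding genes carried one. In the Dox list the number was 30 (78.9%, 63.7 to 88.9), where 22.2% of all protein-coding genes carried one. The KMT/KDM mRNAs are long, with a median of 6507 nt against 2564 nt over all genes, and a longer transcript can hold more peaks. Among transcripts of at least 5000 nt, 22 of 24 KMT/KDM genes (91.7%) carried a peak in either list taken alone, beside 41.7% of all such genes for DMSO and 34.0% for Dox. The part of mRNA abundance in this gap was not tested.

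The same 30 genes carried Dox and DMSO peaks (21.5% of all protein-coding genes carried both). Kdm4c, a demethylase of H3K9 and H3K36, was alone in carrying a DMSO peak and no Dox peak, a class that held 6.08% of all genes. No member carried a Dox peak without a DMSO peak, beside 0.679% of all genes; 0 of 38 allows a share of up to 9.18% by the Wilson interval. With peaks of a score of at least 12, 26 genes carried a DMSO and 22 a Dox peak, Kdm6a had a Dox peak and no DMSO peak, and Kdm4c was no longer alone. With all peaks, 0 of the 24 genes of at least 5000 nt had a peak in 1 list only, where 8.32% of all such genes had one in the DMSO list alone and 0.637% in the Dox list alone. No peak was seen in either list for 7 genes: the H3K4 methyltransferase Setd7, the SET protein Setd4, the H3K4 demethylase Kdm1b, the H3K9 and H3K36 demethylases Kdm4b and Kdm4d, the H3K9 and H3K27 demethylase Kdm7a, and Kdm8, a Jumonji protein linked to H3K36. Their transcripts ran from 1826 to 9566 nt, and 5 of the 7 were under 5000 nt. Of all 21951 protein-coding genes, 6213 carried a peak in at least 1 list. The part of length in the absence of a peak was not tested. Whether the mRNAs of the 7 genes were abundant enough to give a peak was not analysed here.

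Where peaks occurred there were usually several. At least 5 DMSO peaks were carried by 22 genes (57.9%), beside 5.72% of all genes, and at least 5 Dox peaks by 13 (34.2%), beside 3.43%. Among transcripts of at least 5000 nt the counts were 19 of 24 in the DMSO list (17.4% of all such genes) and 13 of 24 in the Dox list (11.4%). The median number of DMSO peaks per gene with a peak was 7, against 2 over all genes, and the median number of bases under those peaks was 1325 against 350. The Dox medians were 3 peaks and 725 bases, against 2 and 300. Kmt2a, Kmt2b, Kmt2c and Kmt2d together held 70 of the 235 DMSO peaks and 55 of the 162 Dox peaks.

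The Dox list covered less of these mRNAs than the DMSO list in each gene that had a peak. All 31 genes had more exonic bases under DMSO peaks than under Dox peaks, and so did 86.7% of all protein-coding genes with a peak in either list. None had more bases under Dox peaks (8.55% of all genes). In numbers of peaks, 25 genes had more in the DMSO list (59.1% of all genes), 6 had as many in both (28.3%) and none had more in the Dox list (12.7%). None had equal bases (4.73% of all genes). The DMSO list was also cut to its 13001 best-scoring peaks, the size of the Dox list. At that size 30 genes had more DMSO bases and 1, Nsd2, had more Dox bases, 400 against 350. With peaks of a score of at least 12, Kmt2d, Kmt2b and Kdm6a had more Dox bases and 23 genes had more DMSO bases. No value over all genes stands beside the counts at these other settings, so that they describe the KMT/KDM genes only.

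**Figure D1:**
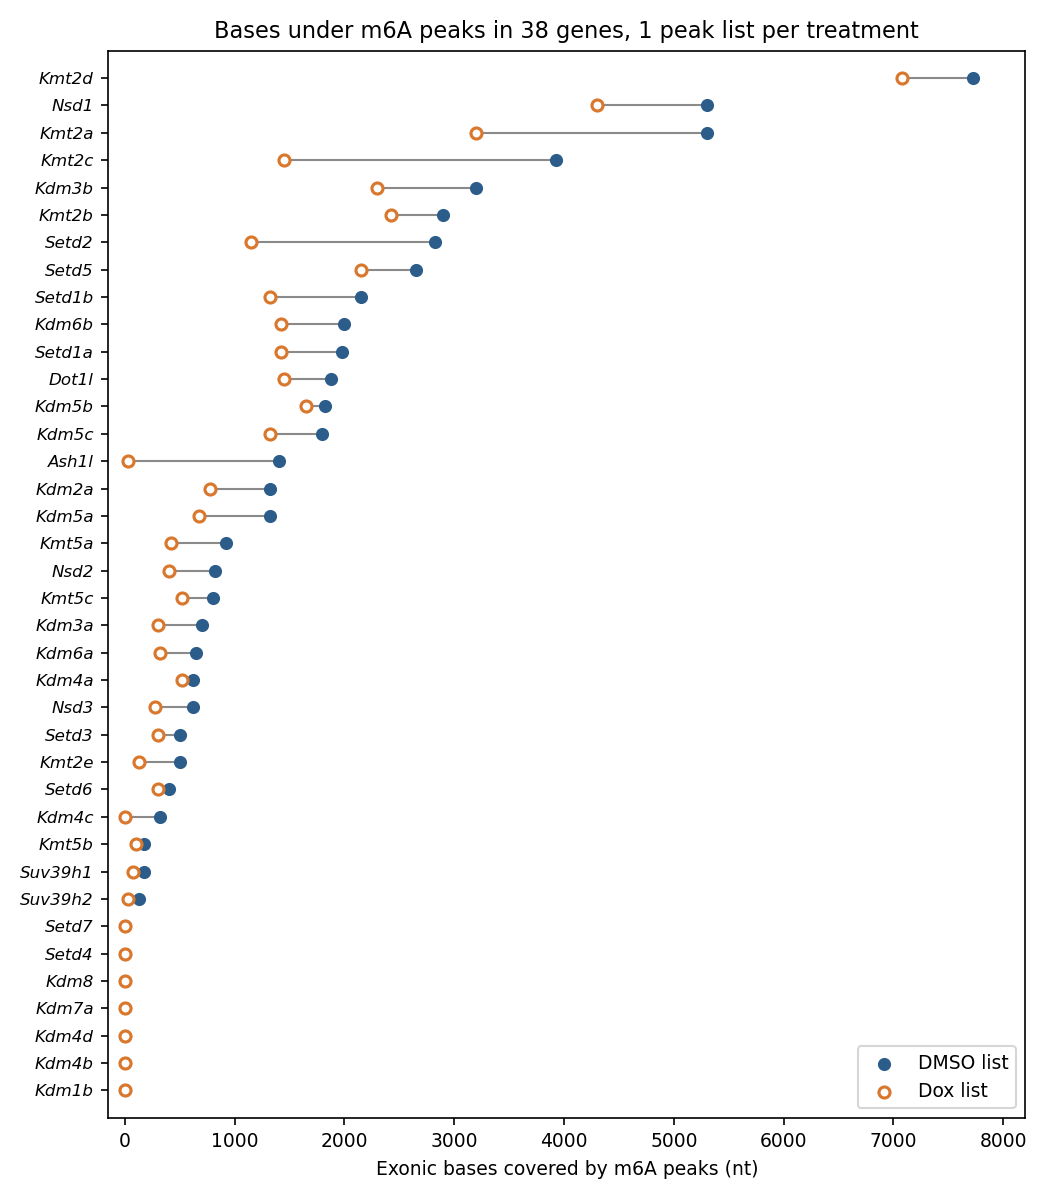
Exonic bases covered by m6A peaks (x axis, nt) for each of the 38 KMT/KDM genes, with the DMSO list as filled and the Dox list as open circles joined by a line (1 list per treatment, no error bars). In all 31 genes with a peak the Dox circle lies to the left of the DMSO circle, closely so in Kmt2d (7075 against 7725 nt) and far so in Ash1l (25 against 1400 nt), and 7 genes lie at 0 in both lists.

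Summed over the genes, DMSO peaks covered 56850 exonic bases and Dox peaks 37825, a ratio of 1.5, where the ratio over all protein-coding genes was 1.47. The ratio of peak numbers was 1.45 (1.19 to 1.77), the same figure as over all genes, and it was 1.09 with the DMSO list cut to the size of the Dox list and 1.91 at a score of at least 12. Both ratios were thus close to those of the lists as a whole. Per gene, the median Dox coverage was 60.2% of the DMSO coverage in the 30 genes with both, against 70.4% over all such genes. Dox coverage was under 50% of DMSO coverage in 10 of the 30 genes (33.3%, 19.2 to 51.2; 24.5% of all genes) and at 75% or more in 8 (26.7%, 14.2 to 44.4; 44.5% of all genes). The intervals of the first share include the value over all genes and those of the second end just below it.

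The Dox peaks lay almost wholly inside the DMSO peaks. Of the 162 Dox peaks, 160 met a DMSO peak (98.8%, 95.6 to 99.7), against 92.8% in all protein-coding genes. Of the 37825 bases under Dox peaks, 36325 were also under DMSO peaks. Most Dox bases were shared over all protein-coding genes too, at 2306404 of 2465749. The 2 Dox peaks of the KMT/KDM genes without a DMSO partner lay in untranslated regions. They were 1 of 100 nt in the Kdm5b 5′UTR (chr1:134560271-134560370, score 11.4) and 1 of 25 nt in the Nsd1 3′UTR (chr13:55314218-55314242, score 10.6). In the other direction 145 of 235 DMSO peaks met a Dox peak (61.7%, 55.3 to 67.7), beside 57.1% in all genes. The 90 DMSO peaks without a Dox partner were shorter than the others, with medians of 75 and 250 nt. Their median score was 11.1 against 12.1. Over all protein-coding genes these median lengths were 50 and 200 nt, and the median score was also lower without a partner. Shorter and lower-scoring peaks without a partner were thus not particular to the KMT/KDM genes. A few of the 90 peaks were strong all the same, and these are named after their values were seen. A Kdm2a peak of 150 nt and an Nsd1 peak of 25 nt both scored 18.1, another Kdm2a peak of 50 nt scored 16.1, and Kmt5a peaks of 250 and 200 nt scored 17 and 15.5, each without a Dox partner.

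Peaks that met were also shorter in the Dox list. Among 112 pairs in which 1 DMSO peak met 1 Dox peak and no other, the DMSO peak was the longer in 84, the Dox peak in 12, and 16 were of equal length, 12 of these with identical ends. The median lengths were 225 and 175 nt. Pairs were not counted over all genes. All peaks that met a peak of the other list had medians of 250 nt (DMSO) and 150 nt (Dox) in the KMT/KDM genes. Over all protein-coding genes these medians were 200 and 150 nt, so that shorter Dox peaks were not particular to the KMT/KDM genes. Peaks among the best-scoring 10% of their list made up 8.94% of the DMSO peaks of these genes (9.97% over all genes) and 4.94% of the Dox peaks (2.52 to 9.44; 9.96%). A further 21 DMSO peaks met 2 or more Dox peaks, that is, a single DMSO region appeared as several pieces in the Dox list, while 7 Dox peaks met 2 or more DMSO peaks. These counts have no value over all genes beside them and describe the KMT/KDM genes only. At a score of at least 12 the share of DMSO peaks with a partner was 39.6%, and at equal list sizes it was 74.6%.

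The H3K4 methyltransferases held more peak bases in sum than any other role, in the role with most genes and with several of the longest transcripts. Of 7 genes, 6 carried peaks in both lists, with 92 DMSO and 71 Dox peaks and 23975 and 16900 bases, so that Dox coverage was 70.5% of DMSO coverage. All 71 Dox peaks met a DMSO peak. These 6 are the KMT2 (MLL) and SETD1 enzymes, which work in WDR5-containing complexes at promoters and enhancers, while Setd7, outside those complexes, had no peak.

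Kmt2d, a main H3K4 monomethyltransferase of enhancers (chr15:98831669-98871204, minus strand; transcript of 19823 nt in 55 exons), carried more peak bases than any other member. It had 22 DMSO and 17 Dox peaks over 7725 and 7075 bases, 91.6% of the DMSO coverage, and its best scores were 13.7 and 14.3. Its 6 long internal exons (neither first nor last, of at least 400 nt) held 19 of the 22 DMSO peaks. Exon 11 was covered to 88.9% by DMSO and 81.9% by Dox peaks, exon 35 to 70.6% and 69.4%, and exon 40, of 2952 nt, to 61.4% and 58.8%. The pattern of Kmt2d was thus close to the same in both lists. Only 4 short DMSO peaks, of 25 to 50 nt, had no Dox partner.

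Kmt2c, the paralog of Kmt2d (chr5:25271798-25498783, minus strand; 14967 nt, 59 exons), looked different. It had 17 DMSO and 13 Dox peaks over 3925 and 1450 bases, only 36.9% of the DMSO coverage. The 13 Dox peaks all lay inside its 5 long internal exons, as did 12 of the 17 DMSO peaks, and each met a DMSO peak. In exon 43, of 1707 nt, coverage was 68.1% in the DMSO and 23.4% in the Dox list, and in exon 36, of 1896 nt, 54.1% and 26.4%. The Dox peaks in these exons lay at the places of DMSO peaks and covered less of them, while the 5 DMSO peaks in short exons had no Dox counterpart.

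Kmt2a, which encodes MLL1 (chr9:44803355-44881296, minus strand; 16470 nt, 36 exons), had nearly as many peaks in both lists, 21 and 20, but 5300 DMSO against 3200 Dox bases (60.4%). All 20 Dox peaks and 17 of the 21 DMSO peaks met a peak of the other list. Coverage of exon 27, of 4237 nt, was 52.8% and 30.4%, and that of exon 3, of 2651 nt, 50.9% and 37.7%. The stop codon itself lay under a peak in both lists. Its best DMSO score was 19.2 and its best Dox score 12.5.

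Kmt2b, the paralog of Kmt2a (chr7:30568858-30588726, minus strand; 8469 nt, 37 exons), had 10 DMSO and 5 Dox peaks over 2900 and 2425 bases (83.6%). Only 5 of its DMSO peaks met a Dox peak, and these 5 held most of the bases. In exon 28, of 1300 nt, the Dox list covered more than the DMSO list, 67.3% against 59.6%, with a single Dox peak of 875 nt in place of DMSO peaks of 375 and 400 nt. Setd1a and Setd1b, the catalytic subunits of the SETD1 complexes, had 8 and 14 DMSO peaks over 1975 and 2150 bases and 7 and 9 Dox peaks over 1425 and 1325 bases. Of the Setd1a peaks, 4 DMSO and 6 Dox peaks also lay in exons of Gm49388, an overlapping gene on the same strand, and cannot be given to Setd1a alone.

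**Figure D2:**
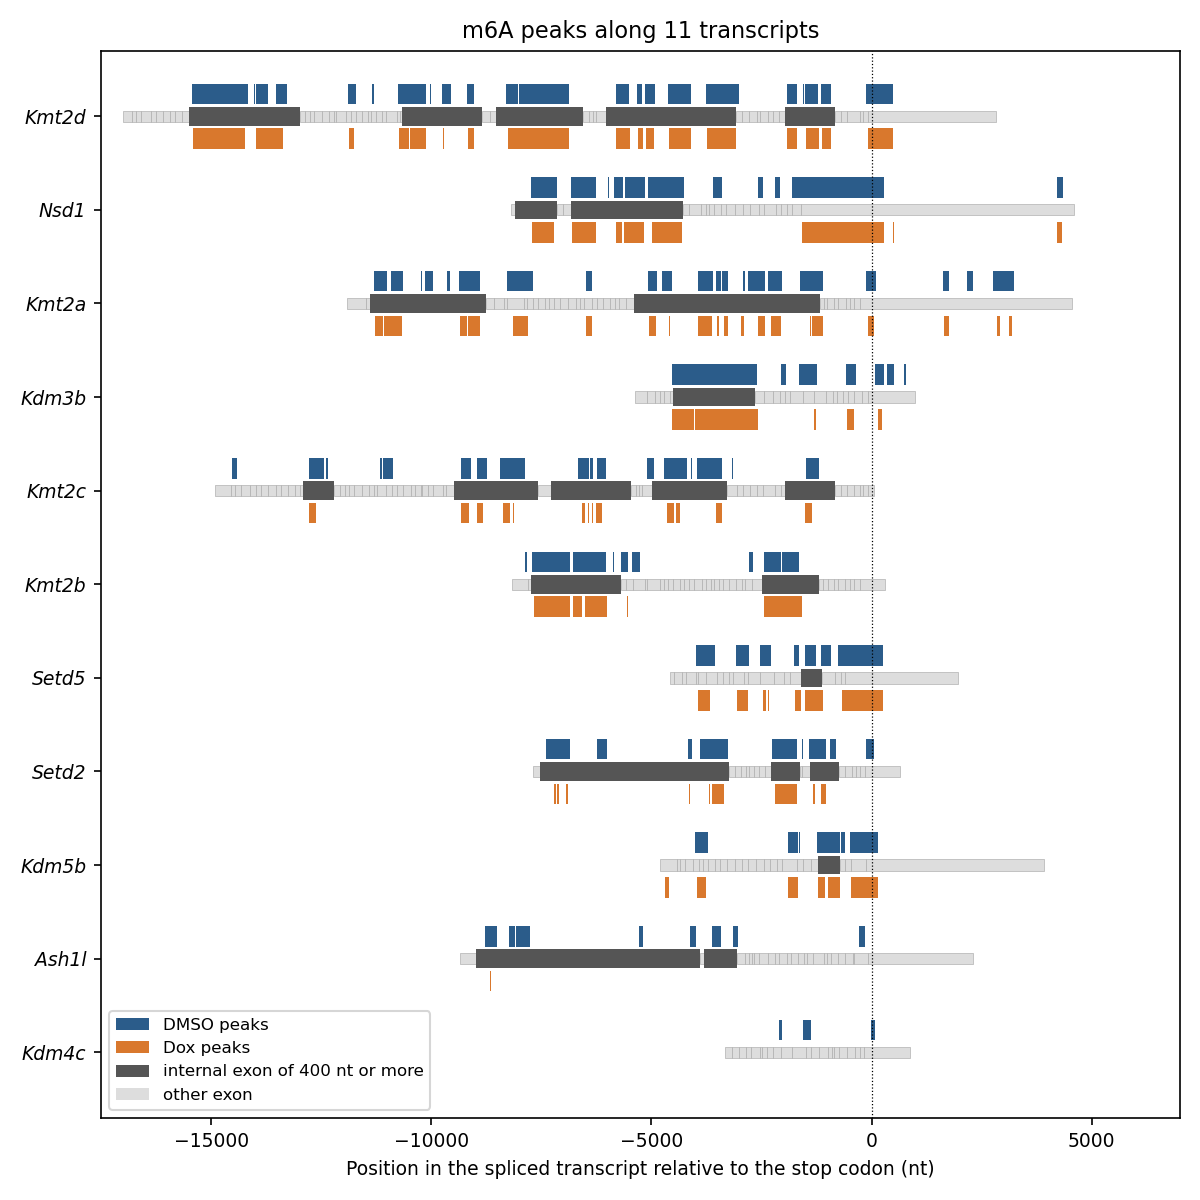
m6A peaks along the spliced transcripts of 11 KMT/KDM genes (x axis, nt from the stop codon, dotted line at 0), with DMSO peaks in blue above and Dox peaks in orange below each transcript and internal exons of at least 400 nt in dark grey. Dox peaks lie beneath DMSO peaks along Kmt2d and, apart from 1 Dox peak after the stop codon, along Nsd1. They are narrower in Kmt2c and Setd2, come down to 25 nt in Ash1l, and are absent in Kdm4c.

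The H3K36 methyltransferases differed widely among themselves. The 5 genes carried 42 DMSO and 24 Dox peaks and 10975 and 6150 bases (56.0%). Nsd1 (chr13:55209782-55318325, plus strand; 12784 nt, 23 exons), a mono- and dimethyltransferase of H3K36, had 12 DMSO and 8 Dox peaks over 5300 and 4300 bases (81.1%). It held the longest peak of all 38 genes in each list, 2100 nt with DMSO and 1875 nt with Dox, which ran across its stop codon. Its exon 5, of 2560 nt, was covered to 79.5% and 70.3%.

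Setd2, the enzyme that trimethylates H3K36 (chr9:110532597-110618633, plus strand; 8350 nt, 21 exons), had 9 peaks in each list but 2825 DMSO against 1150 Dox bases (40.7%). Its exon 3, of 4286 nt, was covered to 35% by 4 DMSO peaks and to 11.1% by 6 Dox peaks of 25 to 275 nt. Exon 12, of 663 nt, was by contrast covered to 86.7% and 75.4%. A DMSO peak lay over its stop codon, with no Dox peak there. Equal numbers of peaks thus went with unequal covered bases in this gene.

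Ash1l, another H3K36 methyltransferase (chr3:88950622-89079375, plus strand; 11644 nt, 28 exons), is named here because it had the lowest Dox coverage of the genes with peaks in both lists, a choice made after its values were seen. It had 8 DMSO peaks over 1400 bases, 7 of them in its 3 long internal exons, with scores from 10.7 to 12.7. In the Dox list 1 peak of 25 nt remained, with a score of 10.3, so that 1.79% of the DMSO coverage was reached. Exon 3, of 4558 nt and the longest internal exon of the whole set, had 650 bases under DMSO peaks and 0 under Dox peaks. The DMSO scores of Ash1l were low to middling, between the 16.3 and 72.6 percentiles of that list.

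Nsd2 and Nsd3, the paralogs of Nsd1, had 8 and 5 DMSO peaks over 825 and 625 bases and 3 Dox peaks each over 400 and 275 bases (48.5% and 44.0%). Coverage was thus several times lower than in Nsd1 in both lists. Dot1l, the H3K79 methyltransferase, had 10 DMSO and 7 Dox peaks over 1875 and 1450 bases (77.3%), and its best score was higher in the Dox list, 16.7 against 14.7.

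The 2 H3K9 and 3 H4K20 methyltransferases kept by the naming rule held 3 and 13 DMSO peaks. The 7 H3K4 and 5 H3K36 methyltransferases held 92 and 42. The Suv39h1 and Suv39h2 transcripts are short, 2778 and 4327 nt, and the part of length was not tested. Prdm2, an H3K9 methyltransferase outside the rule, had 9 DMSO and 12 Dox peaks, so that the low counts hold for these genes only. Suv39h1 and Suv39h2, which trimethylate H3K9 in heterochromatin, had 2 and 1 DMSO peaks over 175 and 125 bases and 1 Dox peak each over 75 and 25 bases. Kmt5a, the H4K20 monomethyltransferase, had 6 DMSO peaks over 925 exonic bases and 1 Dox peak of 425 bases that spanned its stop codon. These peaks covered 55.9% and 29.8% of a transcript of only 1425 nt. Of those 6 peaks, 2 lay outside the transcript used here and matched another locus with at least 98% identity, so that their origin is uncertain. Kmt5b and Kmt5c, which add further methyl groups to H4K20, had 2 and 5 DMSO peaks over 175 and 800 bases and 1 and 3 Dox peaks over 100 and 525 bases.

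Among SET proteins with other or disputed substrates, Setd5 (chr6:113077365-113153435, plus strand; 6527 nt, 22 exons) had nearly matching peaks. It carried 9 peaks in each list over 2650 and 2150 bases (81.1%), and all 9 DMSO peaks met a Dox peak, which held for no other gene with more than 1 DMSO peak. Its best score was 15.2 in the DMSO and 20.4 in the Dox list. Kmt2e, an MLL family protein without established histone activity, had 3 DMSO and 1 Dox peaks over 500 and 125 bases (25%). Setd3, an actin histidine methyltransferase, had 4 and 2 peaks over 500 and 300 bases, all in its last exon. Setd6, which methylates non-histone proteins, had 1 peak in each list, of 400 and 300 bases, over its stop codon.

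The demethylases as a class had a ratio of bases close to that of the methyltransferases. The 15 demethylase genes had 58 DMSO and 40 Dox peaks over 13775 and 9300 bases (67.5%), and the 23 methyltransferase or SET genes had 177 and 122 peaks over 43075 and 28525 bases (66.2%). Genes without any peak were 5 of the 15 demethylases and 2 of the 23 others. Most protein-coding genes had none, since 6213 of 21951 carried a peak in at least 1 list. The classes were not compared by a test.

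Kdm3b, a demethylase of H3K9 (transcript of 6363 nt in 24 exons on chromosome 18, plus strand), was the most covered of them, with 10 DMSO and 9 Dox peaks over 3200 and 2300 bases (71.9%). Its exon 8, of 1249 nt, was covered from end to end in both lists, and exon 7, of 600 nt, to 100% and 95.8%. Further downstream, a DMSO peak of 450 nt over several short exons corresponded to Dox peaks of 25 and 50 nt. Its paralog Kdm3a had 5 and 2 peaks over 700 and 300 bases (42.9%).

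Kdm5b, an H3K4 demethylase (chr1:134560171-134635285, plus strand; 8714 nt, 27 exons), held the best-scoring Dox peak of all 38 genes. It scored 20.8 over 225 nt around exon 6, against 17.8 for the DMSO peak there, of 275 nt. At another site, the exon 19 site whose sequence is given above, the order was the reverse, 11.2 in the Dox list and 18 in the DMSO list over the same 225 nt. A peak of 300 nt across the stop codon had the same ends in both lists. With 7 peaks in each list over 1825 and 1650 bases (90.4%), Kdm5b differed little in the number of bases covered. The peaks did not all match: that in the 5′UTR was in the Dox list only. DMSO peaks of 25 and 100 nt had no Dox partner, and a DMSO peak of 525 nt met 2 Dox peaks. Whether scores can be compared between the lists was not tested.

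The other H3K4 demethylases with peaks were Kdm5a, with 4 and 3 peaks over 1325 and 675 bases, and Kdm5c, with 6 and 4 peaks over 1800 and 1325 bases. Both had a peak over the stop codon in both lists, and the Kdm5c peak there, of 800 nt, had the same ends in both. The H3K27 demethylases Kdm6a and Kdm6b had 5 and 7 DMSO peaks over 650 and 2000 bases and 3 and 7 Dox peaks over 325 and 1425 bases. Of the Kdm6a DMSO peaks, 1 of 25 nt matched another locus. Most of the Kdm6b peaks lay in its exon 11, of 2168 nt, covered to 67.6% and 56.0%. Kdm2a, an H3K36 demethylase, had 7 and 3 peaks over 1325 and 775 bases.

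In the KDM4 family, which removes methyl groups from H3K9 and H3K36, peaks were sparse. Kdm4a had 3 and 2 peaks over 625 and 525 bases (84.0%), and its peak of 250 nt at the stop codon had the same ends in both lists, with scores of 17.9 and 14.8. Kdm4c (chr4:74242497-74405860, plus strand; 4196 nt, 22 exons) had 4 DMSO peaks of 50, 25, 175 and 75 nt, with scores of 10.7, 10.1, 12.3 and 12.3. The last of these ran across the stop codon and the other 3 lay in coding sequence. They covered 325 bases in all, against 0 in the Dox list, and no score was above the 66th percentile of the DMSO list.

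Long internal exons were the main place of these peaks, more so than over all genes. The middle base of 121 of 231 DMSO peaks that could be placed on the transcript lay in an internal exon of at least 400 nt (52.4%, 46.0 to 58.7), where 17.3% of the peaks of all protein-coding genes did. In the Dox list it was 103 of 160 (64.4%, 56.7 to 71.4), against 20%. Against peaks of long transcripts only, of at least 5000 nt, the shares were 57.9% (51.0 to 64.5) beside 29.6% in the DMSO list and 68.0% (60.1 to 75) beside 34.8% in the Dox list. Counted from 1000 nt instead, the shares were 32.9% for DMSO and 43.8% for Dox. Near the stop codon the order was the reverse: 7.36% of DMSO peaks (4.65 to 11.5) lay within 200 nt of it, against 22.9% over all genes, and 8.75% of Dox peaks (5.28 to 14.2), against 25.1%. In long transcripts these shares were 4.95% against 13.1% and 5.44% against 15%. By region, coding sequence held 90.5% of DMSO peaks (72.3% over all genes) and 90% of Dox peaks (71.3%), the 3′UTR 8.66% (24.3%) and 8.75% (24.8%), and the 5′UTR 0.866% (3.43%) and 1.25% (3.86%).

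These genes are also rich in such exons. Long internal exons made up 27.4% of the transcript bases of KMT/KDM genes with a DMSO peak and 8.59% of those of all genes with one. Within such exons, 54.4% of the bases lay under DMSO peaks and 39.5% under Dox peaks, against 43.3% and 37.0% over all genes. Outside them the values were 12.6% and 7.38%, against 12.4% and 10.3%. Near the stop codon, coverage was not lower than over all genes: 38.4% of the bases within 200 nt of it were under DMSO peaks and 33.0% under Dox peaks, against 33.4% and 30.7%. The stop codon was covered in 16 of 31 genes in the DMSO list (51.6%, 34.8 to 68.0; 41.4% over all genes) and in 12 of 30 in the Dox list (40%, 24.6 to 57.7; 38.4%). A low share of peaks at the stop codon thus stood beside coverage there that was close to that of all genes.

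**Figure D3:**
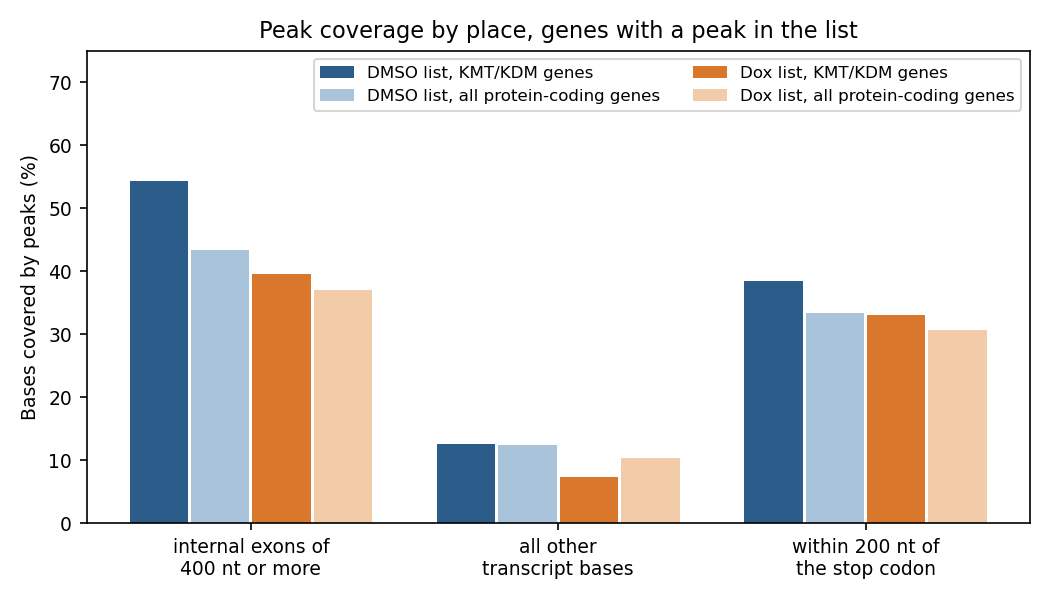
Share of transcript bases under m6A peaks (y axis, %) in internal exons of at least 400 nt, in all other bases and within 200 nt of the stop codon, for KMT/KDM genes (dark bars) and all protein-coding genes (light bars) with a peak in the DMSO (blue) or Dox (orange) list. Long internal exons of the KMT/KDM genes reach 54.4% in the DMSO and 39.5% in the Dox list, against 12.6% and 7.38% in the other bases.

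The 38 genes had 53 such exons, spread over 26 genes. DMSO peaks reached 51 of them and Dox peaks 47, and the 2 without any peak were in Kdm8 and Setd4. Coverage was higher in the DMSO list in 45 exons, higher in the Dox list in 4 (in Kmt2b, Kmt2d, Setd1b and Setd5) and equal in 2 (in Kdm3b and Kdm5c). The median coverage was 53.3% by DMSO and 32.1% by Dox peaks. The 4 exons with DMSO bases and no Dox bases were exons 3 and 5 of Ash1l, exon 22 of Kmt2e and exon 3 of Nsd2. Long internal exons were not counted in this way over all genes. Whether these exon counts differ from those of other genes is thus not known.

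**Figure D4:**
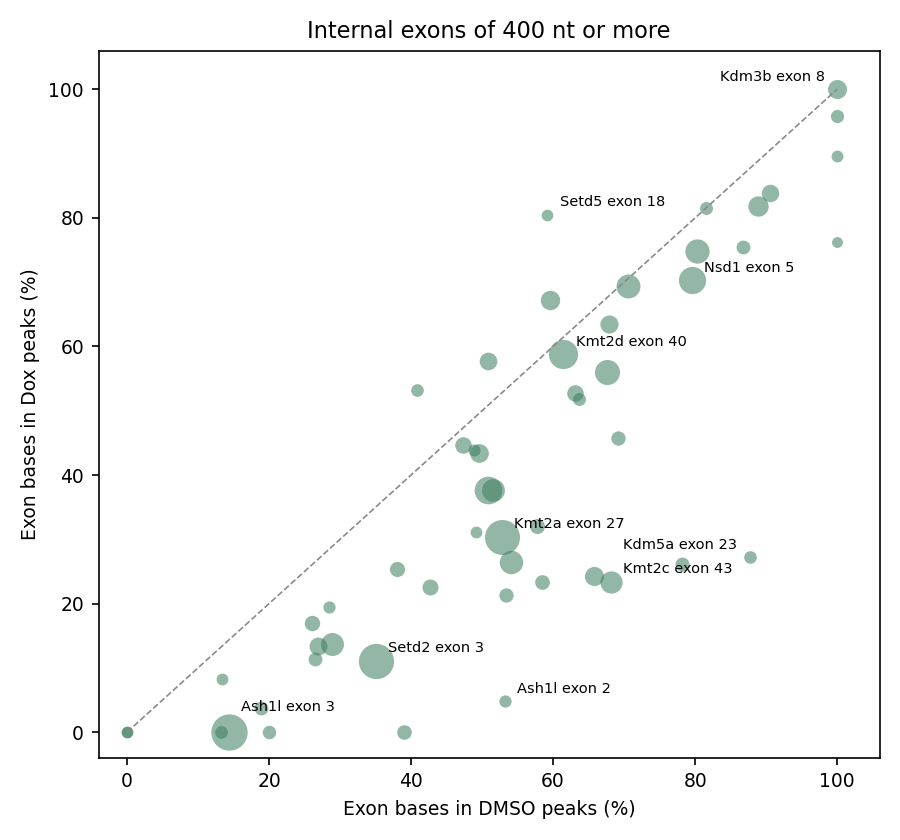
Each of the 53 internal exons of at least 400 nt in the KMT/KDM genes, with the share of its bases under DMSO peaks (x axis, %) and under Dox peaks (y axis, %); the circle area grows with exon length and the dashed line marks equal shares. Most circles lie below the line, exon 8 of Kdm3b lies at 100% on both axes, and exon 3 of Ash1l, the longest at 4558 nt, lies at 14.3% and 0%.

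DMSO peaks in long internal exons met a Dox peak more often than the other DMSO peaks of these genes, at 91 of 121 (75.2%, 66.8 to 82.0) against 54 of 110 (49.1%, 39.9 to 58.3). Over all protein-coding genes the shares were 62.7% and 56.4%. The 17 DMSO peaks at the stop codon met a Dox peak in 14 cases (82.4%, 59.0 to 93.8; 66.4% over all genes). Peak length differed between these places too, with medians of 225 nt in long internal exons and 150 nt elsewhere, and a longer peak meets another more easily. The median score was 11.8 in both. Of the 121 DMSO peaks in long internal exons, Kmt2d, Kmt2a and Kmt2c held 19, 15 and 12. The peaks are thus not independent, and the intervals may be too narrow.

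The motif GGAC, searched on the strand of the gene, was present in 144 of 235 DMSO peaks (61.3%, 54.9 to 67.3), against 54.1% in all protein-coding genes, and in 102 of 162 Dox peaks (63.0%, 55.3 to 70.0), against 55.9%. Its reverse complement GTCC on the same strand, given for comparison, was in 42.1% and 44.4% of the peaks, against 36.5% and 36.9%. Of 951 GGAC sites in the KMT/KDM transcripts with a DMSO peak, 331 (34.8%) lay under a DMSO peak, against 25.4% of GTCC sites and 24.0% of all bases. In the Dox list 239 of 943 GGAC sites did (25.3%), against 20.1% of GTCC sites and 16.3% of all bases. Over all protein-coding genes with a DMSO peak, the shares were 22.4% of GGAC sites, 14.8% of GTCC sites and 15% of bases. For the Dox list they were 20%, 12.6% and 12.7%. The ratio of GGAC to GTCC shares was thus lower in the KMT/KDM genes than over all genes in both lists, a difference that was not tested. DMSO peaks with GGAC met a Dox peak in 109 of 144 cases (75.7%, 68.1 to 82.0; 73.1% over all genes) and those without in 36 of 91 (39.6%, 30.1 to 49.8; 38.2%). The peaks with GGAC were longer, with a median of 250 nt against 100 nt, so that the motif and the length cannot be told apart here. Among peaks of 75 to 150 nt the shares with GGAC were 55% (50% over all genes) and 58.8% (51.9%), and the wider motif DRACH (D not C, R a purine, H not G) was in 88.9% of DMSO peaks (85% over all genes) and 88.3% of Dox peaks (85.4%).

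**Figure D5:**
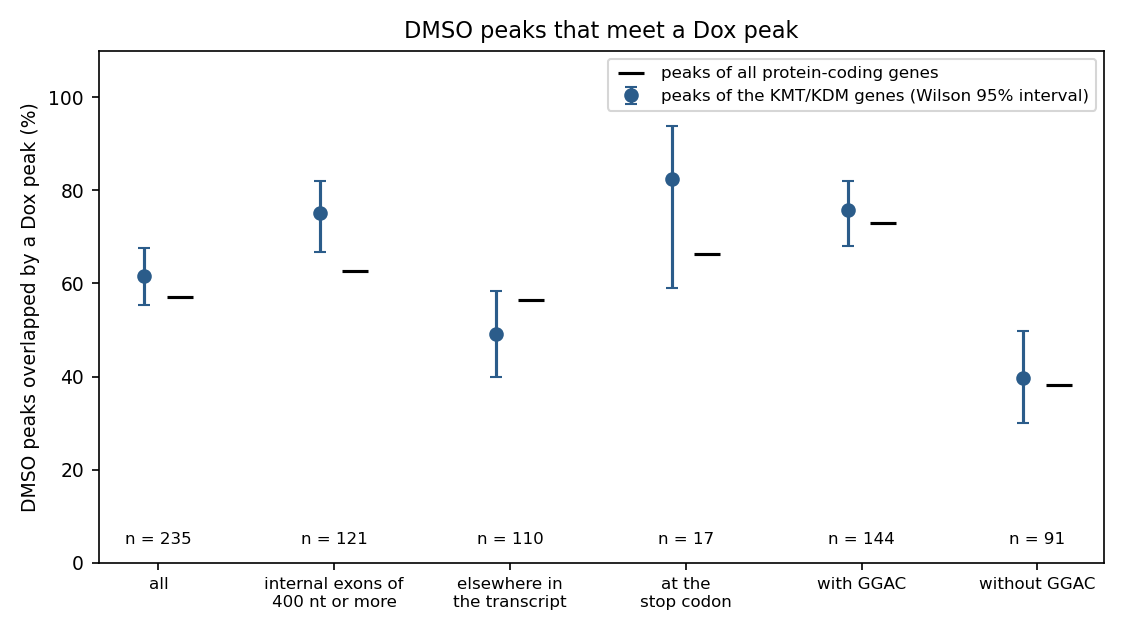
Share of DMSO peaks of the KMT/KDM genes that met a Dox peak by at least 1 base (y axis, %), for all 235 peaks and by place and motif; points are shares with Wilson 95% intervals of counting error, dashes the share over all protein-coding genes, and n the number of peaks. The share was 75.2% in internal exons of at least 400 nt and 49.1% elsewhere, and 75.7% with GGAC and 39.6% without.

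Genes related to this set but outside the naming rule are given by their sums. Of 23 other lysine methyltransferase and demethylase genes, among them Ezh2, Ehmt1 and Setdb1, 14 carried DMSO and 12 Dox peaks (27.6% and 22.2% of all protein-coding genes), with 63 and 42 peaks over 13750 and 9025 bases. Single genes went either way: Jmjd1c, a Jumonji C protein, had 11 DMSO and 6 Dox peaks, and Prdm2, an H3K9 methyltransferase, had 9 and 12. Of these 63 DMSO peaks 33 met a Dox peak (52.4%, 40.3 to 64.2; 57.1% over all genes). The 14 genes for subunits of the KMT2 and SETD1 complexes, such as Wdr5, Rbbp5 and Ash2l, all carried peaks in both lists, 82 DMSO and 59 Dox peaks over 16035 and 9685 bases. Of their DMSO peaks 59.8% (48.9 to 69.7) met a Dox peak. The ratios of DMSO to Dox peaks, 1.5 and 1.39 in these lists, were near the 1.45 of all protein-coding genes. The ESC marker genes, by comparison, had 16 DMSO and 17 Dox peaks over 6825 and 6475 bases, and 93.8% (71.7 to 98.9) of their DMSO peaks met a Dox peak. The 2C marker genes went the other way, with 5 DMSO and 17 Dox peaks over 625 and 5072 bases.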

How the data were processed

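The authors filtered reads with fastp 0.19.4, aligned them to mm10 with HISAT2 2.2.1 and called m6A peaks of IP over input with exomePeak2, whose version and settings are not given in the sources used here; ChIPseeker is also named in the submitters' processing notes. The libraries were strand-specific, from fragments of poly(A) RNA. The authors deposited 1 peak list per treatment, with the 2 IP and 2 input libraries already combined, and column 5 of each list, the score, was taken to be a −log10 p-value, as deposited; whether it was adjusted is not stated. Depth per library is unknown here.

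Peaks were set against GENCODE vM21, and all 178 and 72 inner block edges of spliced KMT/KDM peaks (DMSO and Dox) lay at annotated exon edges. Positions used the transcript with the longest coding sequence per gene, a peak being placed by its middle base; 4 DMSO and 2 Dox peaks could not be placed. A long internal exon has at least 400 nt and is neither first nor last. Peaks overlapped when they shared at least 1 base on the same strand. Other loci were searched on the reference chromosomes with blastn 2.17.0 (at least 98% identity over 90% of the peak). Most shares at the main settings stand beside those over all 21951 protein-coding genes. Shares and counts under the alternative settings have no such value beside them. Genes named in full were the 8 with most covered bases, those with peaks in 1 list only and those with the best-scoring peak of each list, to which Ash1l was added after its values were seen. The genes, lists and measures were chosen with earlier results of these data known. Alternatives covered the score threshold, equal list sizes, the overlap rule, strand, the gene assignment, near-identical loci, the transcript, the stop codon window, the exon length and the motif. Calculations used Python 3.11.15, numpy 2.4.6 and pysam 0.24.0, figures matplotlib 3.10.9, and the peak steps were tested on simulated peaks. Replicate values and reads were not analysed here.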

Additional observations from a re-analysis of the deposited data

How the results depend on the processing

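Of 47 values recomputed under other settings for 14 results, 27 stayed within the counting interval of the value reported, or within 1.5 times a reported count, and 20 did not. Keeping peaks with a score of at least 12 gave a ratio of DMSO to Dox peaks of 1.91, a ratio of bases of 1.84, DMSO and Dox peaks with a partner in 39.6% and 71.7%, 3 genes with more Dox bases, and GGAC in 75.2% of DMSO and 71.7% of Dox peaks. Equal list sizes gave a ratio of 1.09, partners in 74.6% and 90.7%, and 1 gene with more Dox bases. Overlap of 50% of the peak itself left 46.0% of DMSO peaks with a partner, and 50% of both peaks left 41.7% of DMSO and 60.5% of Dox peaks. Long internal exons held 64.9% and 73.1% of DMSO and Dox peaks when counted from 200 nt, and 32.9% and 43.8% from 1000 nt. The wider motif DRACH (D not C, R a purine, H not G) was in 88.9% and 88.3% of peaks. No paired analysis was possible because the deposited peaks pool both replicates of a treatment, and for the same reason no replicate could be left out. Peaks are called or not called at a threshold, so that an absent Dox peak does not show that m6A was absent.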
